A study of Mus musculus with 9 samples.

Results

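The genes described here encode the aminoacyl-tRNA synthetases of the mouse and the scaffold proteins of their complex. They were chosen by symbol: a probe set annotated to 1 gene whose symbol has the form of a synthetase name (an amino acid letter followed by ars, with 2 at the end for the mitochondrial enzyme), together with Eprs, Aimp1 and Aimp2. This gave 37 of 18193 genes on the array: 19 cytosolic synthetases, 16 mitochondrial synthetases and 2 scaffolds. The members had 75 probe sets in all, and each gene was read from its probe set with the highest mean over the 9 arrays. Of the 37 genes, 36 were bright enough to be tested. Mars2, the mitochondrial methionine enzyme, was not: its log2 values lay between 3.97 and 4.48 in the preSC arrays, 4.35 and 4.48 in the L-Myc arrays, 5.67 and 4.89 in the C-Myc arrays and 5.08 and 5.18 in the N-Myc arrays.

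Aminoacyl-tRNA synthetases join each amino acid to its own tRNA and so set the accuracy of the genetic code. Cytosolic enzymes serve translation of nuclear-encoded messages, and a separate, nuclear-encoded set charges the tRNAs of the mitochondrial ribosome, with a few genes serving both compartments. The enzymes fall into class I and class II by the fold of the catalytic domain, and in animals part of the cytosolic set is held in a multisynthetase complex by the scaffolds Aimp1, Aimp2 and Eef1e1. Protein synthesis, and with it tRNA charging, is among the processes that MYC transcription factors are known to act on.

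RNA came from cultured preSC, preneoplastic neuroendocrine cells isolated from lungs of mice of a mixed C57BL/6 and 129/Sv background that carried conditional alleles of Rb, p53 and p130 and had received Adeno-Cre virus. All groups therefore share the triple-mutant genotype and growth in RPMI1640 with bovine growth serum. There were 3 arrays of preSC and 2 each of preSC transduced with a retrovirus for L-Myc, for C-Myc or for N-Myc, and the L-Myc cells are labelled as having become transformed. The labels name no promoter of the retrovirus, no empty-vector control and no number of independent transductions. The molecule is labelled polyA RNA for preSC and L-Myc and total RNA for C-Myc and N-Myc, although 1 extraction protocol for total RNA is given for every array. The series text calls the replicates biological, and no label names separate cultures, so p-values measure the spread between these arrays, which may be partly technical. The number of arrays limits the precision.

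As a check of the labels, the second-brightest Mycl probe set read 11.79 and 12.74 in the L-Myc arrays and at most 8.52 in any other. Myc read 11.22 and 10.68 in the C-Myc arrays, but also 11.96 and 11.40 in the N-Myc arrays, against at most 8.13 in preSC. The third Mycn probe set stood at 9.05 and 8.46 in the N-Myc arrays and between 5.79 and 6.39 elsewhere, whereas the brightest Mycn probe set was lower in the N-Myc arrays (11.64 and 11.07) than in the L-Myc arrays (12.92 and 13.33) or the C-Myc arrays (13.54 and 13.08). The labelled gene thus stood high on at least 1 probe set in each group, and raised Myc and Mycn signal was not limited to 1 group, so the groups are named below as labelled. All 9 neuroendocrine markers measured passed the brightness filter, with a mean level of 11.23 to 11.48 in the preSC arrays and 10.53 to 11.07 in the transduced arrays. Of the markers of other cells, 4 of 8 for fibroblasts and stroma, 1 of 5 for endothelium, 2 of 5 for leukocytes and 5 of 6 for club, alveolar and ciliated epithelium passed it. Those below it included Col1a1, Col1a2, Col3a1, Pecam1, Cdh5, Ptprc and Scgb1a1. Epithelial marker levels averaged 5.86 to 6.31 in preSC, 5.76 to 6.09 in L-Myc, 5.72 to 6.47 in C-Myc and 6.53 to 6.62 in N-Myc arrays. The preSC arrays stood apart in control probe sets: the middle 18S rRNA probe set read 12.80 to 13.92 there and 8.03 to 9.27 in the transduced arrays, and the actin control's 5′ minus 3′ difference was -0.85 to -0.62 against -0.31 to -0.20. The same difference of the DapX control was -3.66 to -3.4 in preSC against -1.68 to -1.51 in the transduced arrays. These control values and the neuroendocrine marker level differed between preSC and every transduced group. The epithelial level overlapped with preSC in L-Myc and C-Myc and was higher in N-Myc. The part of these differences in the results was not tested. Because the control values split all preSC arrays from all transduced arrays, L-Myc included, they and the virus cannot be told apart.

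Both scaffold genes and a part of the cytosolic synthetase genes were higher in the transduced arrays than in preSC. Of the 19 cytosolic genes, 5 rose in L-Myc, 9 in C-Myc and 8 in N-Myc arrays. For comparison, the share of all 12976 tested genes that rose was 5.44% in L-Myc, 9.91% in C-Myc and 12.5% in N-Myc. Of the 15 mitochondrial genes tested, 1, 3 and 5 rose in the same order of groups. In the C-Myc and N-Myc comparisons the labelled molecule differs from that of preSC, so this label and the virus cannot be told apart there. The difference in control probe sets cannot be told apart from the virus in any comparison with preSC, L-Myc included. In bulk RNA, more cells with a transcript and more of it per cell cannot be told apart. The test was limma with Benjamini-Hochberg adjustment over all genes, at a threshold of 0.05, and "rose" or "fell" means that a gene passed it.

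Falls were rare among the synthetases, while they were the commoner direction over all genes, of which 8.03% fell in L-Myc, 13.6% in C-Myc and 16.4% in N-Myc. No cytosolic gene fell in any of these limma comparisons. At an unadjusted p under 0.05 only Hars was lower, in L-Myc on its brightest probe set. Of all tested genes, 30.5%, 38.3% and 42.4% had such a p in either direction with L-, C- and N-Myc. Lars2, for mitochondrial leucyl-tRNA synthetase, fell in all 3 groups on its brightest probe set but rose in all 3 on its second probe set. The median change of the cytosolic genes was 0.53, 0.55 and 0.55 on the log2 scale with L-, C- and N-Myc, and that of the mitochondrial genes 0.19, 0.41 and 0.45. The median over all tested genes was -0.04, -0.05 and -0.03. The 3 comparisons use the same preSC arrays, so their likeness is not independent support.

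**Figure D1:**
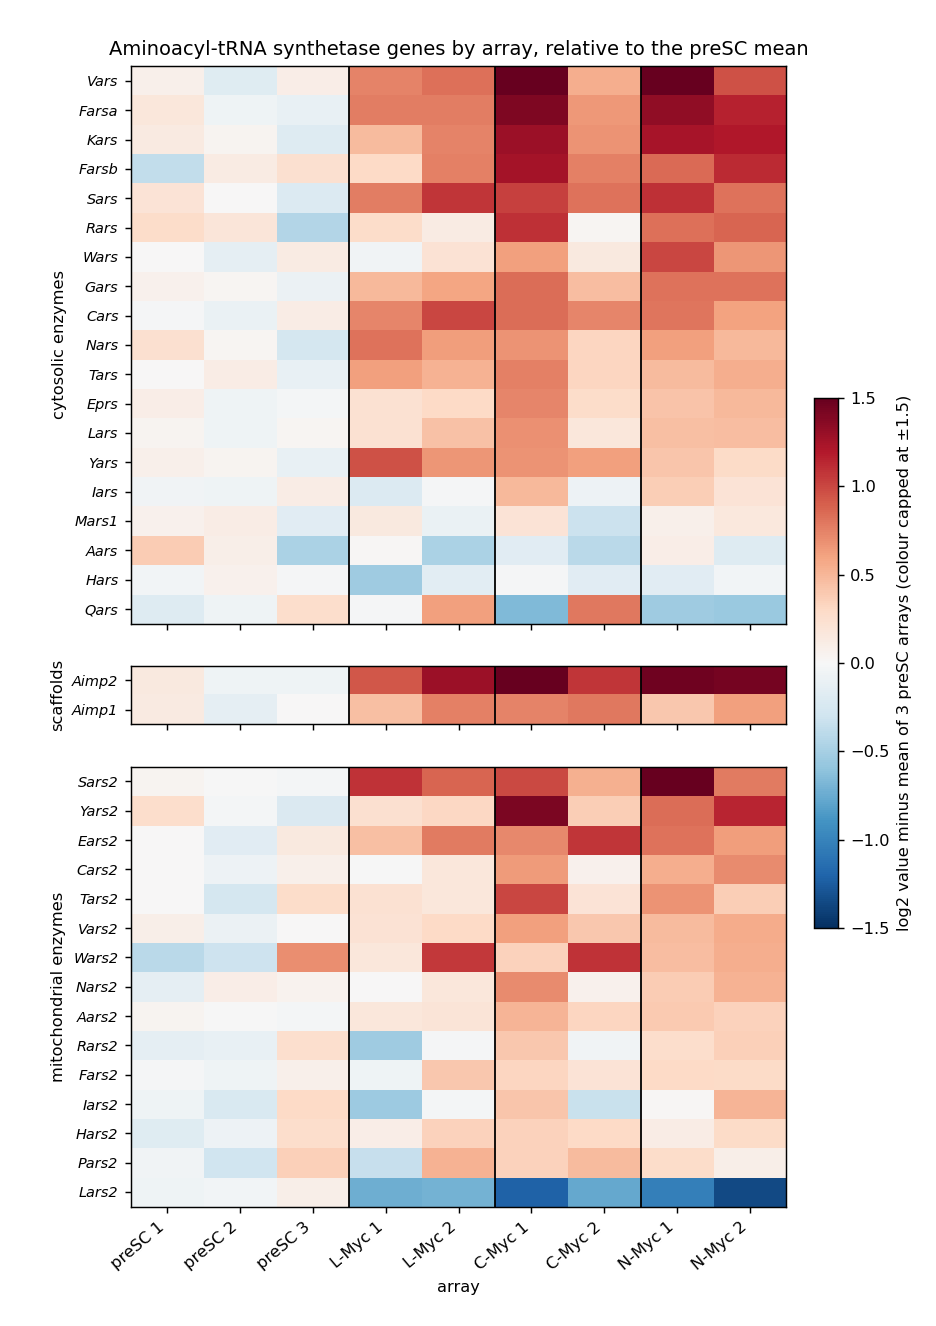
Log2 value of each tested gene in each of the 9 arrays minus its mean over the 3 preSC arrays, as colour (capped at 1.5 in either direction), with cytosolic enzymes, scaffolds and mitochondrial enzymes in separate panels. Both scaffold genes and most cytosolic genes are above the preSC mean in all 6 transduced arrays, while Aars, Hars, Iars, Mars1, Qars and Wars are not, and Lars2 is below it in all 6.

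Without regard to the test, 16 of the 19 cytosolic genes had a positive change in each comparison. The arrays of the 2 groups did not overlap, with the transduced arrays higher, for 18 of 36 members in L-Myc, 22 in C-Myc and 27 in N-Myc, where 22.0%, 23.2% and 30.7% of all tested genes did so. They did not overlap with the transduced arrays lower for 2, 1 and 2 members, where 27.5%, 29.1% and 34.8% of all genes did so.

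Both scaffold genes rose in every group. Aimp2, the core scaffold of the complex, read 9.17, 8.95 and 8.95 in preSC, 9.95 and 10.30 with L-Myc, 10.62 and 10.09 with C-Myc and 10.48 and 10.45 with N-Myc. Every transduced array was above every preSC array, and no other member changed more on its brightest probe set. Aimp2 rose by 1.10 in L-Myc, 1.33 in C-Myc and 1.44 in N-Myc on the log2 scale (SE 0.19 each; adjusted p = 0.0142, 0.00555 and 0.00432), that is 2.14-, 2.52- and 2.72-fold. Its second probe set also rose, by 0.63, 0.86 and 0.88.

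Aimp1, the scaffold that binds tRNA and the arginine enzyme, read 10.62, 10.35 and 10.50 in preSC, 10.94 and 11.24 with L-Myc, 11.23 and 11.28 with C-Myc and 10.89 and 11.11 with N-Myc. Again no transduced array overlapped with preSC. The changes were 0.60, 0.76 and 0.51 (SE 0.15; adjusted p = 0.0433, 0.014 and 0.0443).

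The cytosolic genes that rose in all 3 groups were Cars, Gars and Sars. Sars, the serine enzyme, which also charges the selenocysteine tRNA, read 10.37, 10.16 and 9.96 in preSC, 10.93 and 11.23 with L-Myc, 11.18 and 10.97 with C-Myc and 11.25 and 10.98 with N-Myc. The groups transduced with a MYC virus lay close together and wholly above preSC. The changes were 0.92, 0.91 and 0.95 (SE 0.18; adjusted p = 0.0192, 0.0133 and 0.0106), and the second probe set rose by 0.75, 0.80 and 0.83.

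Cars, the cysteine enzyme, read 8.97, 8.89 and 9.10 in preSC, 9.72 and 9.99 with L-Myc, 9.83 and 9.72 with C-Myc and 9.79 and 9.59 with N-Myc. The transduced arrays did not overlap with preSC, and the changes were 0.87, 0.79 and 0.71 (SE 0.15; adjusted p = 0.0119, 0.0111 and 0.0136). The second Cars probe set did not follow: its changes were 0.06, 0.25 and 0.04, and none passed. Gars, whose single probe set reads the gene for both the cytosolic and the mitochondrial glycine enzyme, read 11.36 to 11.51 in preSC and 11.91 to 12.29 in the transduced arrays and rose by 0.55, 0.65 and 0.82 (SE 0.15; adjusted p = 0.0494, 0.0196 and 0.00887); it was chosen for its values in addition to the rule for named genes.

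Farsa, Farsb, Kars and Vars rose in the C-Myc and N-Myc arrays but did not pass in L-Myc. Farsa and Farsb encode the catalytic and the editing subunit of the phenylalanine enzyme. Farsa read 8.65, 8.42 and 8.37 in preSC, 9.25 and 9.25 with L-Myc, 9.88 and 9.13 with C-Myc and 9.81 and 9.64 with N-Myc. All transduced arrays were above preSC, with C-Myc 2 the lowest of them. The changes were 0.77 in L-Myc, 1.03 in C-Myc and 1.24 in N-Myc (SE 0.22; adjusted p = 0.062, 0.0183 and 0.00915).

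Farsb read 9.90, 10.39 and 10.51 in preSC, 10.57 and 11.02 with L-Myc, 11.52 and 11.02 with C-Myc and 11.12 and 11.39 with N-Myc. The groups did not overlap, although L-Myc 1 stood just above preSC 3. The changes were 0.53, 1.00 and 0.98 (SE 0.25; adjusted p = 0.209, 0.0296 and 0.0271). Its second probe set gave 0.65 without passing in L-Myc, and rose by 1.09 in C-Myc and 1.02 in N-Myc. For Farsa the second probe set was flat (-0.07, -0.03 and -0.07, none passing), so the rise of that subunit rests on the brightest of its 4 probe sets.

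Kars, a gene that makes both the cytosolic and the mitochondrial lysine enzyme, read 10.47, 10.37 and 10.14 in preSC, 10.81 and 11.07 with L-Myc, 11.61 and 11.00 with C-Myc and 11.57 and 11.53 with N-Myc. The N-Myc arrays and C-Myc 1 were highest, and no transduced array overlapped with preSC. The changes were 0.61, 0.98 and 1.22 (SE 0.21; adjusted p = 0.0957, 0.0167 and 0.00804).

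Vars, the valine enzyme, read 8.97, 8.71 and 8.99 in preSC, 9.63 and 9.72 with L-Myc, 10.57 and 9.43 with C-Myc and 10.46 and 9.85 with N-Myc. The C-Myc arrays differed from each other by more than the L-Myc arrays did from preSC. The changes were 0.78, 1.11 and 1.26 (SE 0.33; adjusted p = 0.163, 0.0496 and 0.0287), so the L-Myc value missed the threshold with the widest error among the genes that passed elsewhere.

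Yars, the tyrosine enzyme, had its highest group mean in L-Myc, where the arrays overlapped with those of C-Myc. It read 9.56, 9.52 and 9.37 in preSC, 10.43 and 10.14 with L-Myc, 10.15 and 10.10 with C-Myc and 9.90 and 9.77 with N-Myc. All 6 transduced arrays were above preSC, the N-Myc arrays least so. The changes were 0.80, 0.64 and 0.35 (SE 0.14; adjusted p = 0.0136, 0.0183 and 0.0964).

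Nars, the asparagine enzyme, passed in L-Myc alone when read from its brightest probe set. This probe set read 11.56, 11.35 and 11.06 in preSC, 12.14 and 11.95 with L-Myc, 11.99 and 11.64 with C-Myc and 11.94 and 11.81 with N-Myc. The preSC arrays were widely spread but did not overlap with any transduced array. The changes were 0.73, 0.49 and 0.55 (SE 0.19; adjusted p = 0.0447, 0.0992 and 0.0634). The second Nars probe set was tighter in preSC and rose in all 3 groups, by 1.23, 1.12 and 1.03 (SE 0.14; adjusted p over all probe sets 0.00149, 0.00166 and 0.00212).

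Tars, the threonine enzyme, passed in C-Myc alone, with changes of 0.57, 0.55 and 0.51 (SE 0.16; adjusted p = 0.0575, 0.0465 and 0.0504). These values lie within 1 SE of each other and to either side of the threshold. Eprs, the fused glutamate and proline enzyme of the complex, read 10.86, 10.69 and 10.73 in preSC, 10.99 and 11.06 with L-Myc, 11.49 and 11.03 with C-Myc and 11.19 and 11.25 with N-Myc. The transduced arrays did not overlap with preSC, but the changes of 0.26, 0.50 and 0.46 (SE 0.16; adjusted p = 0.314, 0.0596 and 0.0664) did not pass. The second of the 4 Eprs probe sets rose in all 3 groups, by 0.65, 0.89 and 0.75.

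The cytosolic genes that passed in no group on their brightest probe set were Aars, Eprs, Hars, Iars, Lars, Mars1, Qars and Rars. For Lars, the leucine enzyme, the arrays did not overlap with preSC in any group, with changes of 0.33, 0.43 and 0.45. Rars, the arginine enzyme, gave 0.19, 0.56 and 0.85 with a wide error (SE 0.33). Mars1, the methionine enzyme, lay at 0.02, -0.05 and 0.12, and Hars, the histidine enzyme, at -0.35, -0.10 and -0.11. The second Hars probe set went the other way, at 0.21, 0.40 and 0.46, and none passed. Aars, the alanine enzyme, gave -0.23, -0.29 and -0.04, and Iars, the isoleucine enzyme, -0.11, 0.21 and 0.30.

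The cytosolic set holds 7 synthetase genes of the multisynthetase complex and 12 outside it. In the complex 0, 1 and 1 rose with L-, C- and N-Myc, with median changes of 0.26, 0.43 and 0.45. At an unadjusted p under 0.05 in limma, 1, 3 and 4 of the 7 were higher and 0 lower. Of all tested genes, 30.5%, 38.3% and 42.4% had such a p in either direction. The share that rose in the complex was 0%, 14.3% and 14.3%, against 5.44%, 9.91% and 12.5% of all genes. By this count, on the brightest probe sets, the synthetase genes of the complex stood near the background. The second Eprs probe set rose in all 3 groups and that of Iars in C-Myc and N-Myc. The arrays of 42.9%, 42.9% and 71.4% of the 7 genes lay wholly above preSC, against 22.0%, 23.2% and 30.7% of all genes. Those of 0%, 0% and 14.3% lay wholly below, against 27.5%, 29.1% and 34.8%. The medians of the 7 genes were above those of all tested genes, which were -0.04, -0.05 and -0.03. Outside the complex 5, 8 and 7 rose (41.7%, 66.7% and 58.3%), with medians of 0.65, 0.65 and 0.76. The difference between these sets was not tested. On the brightest probe sets the only synthetase called within the complex was Kars, while the scaffolds Aimp1 and Aimp2 rose in every group.

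Class I and class II cytosolic enzymes both held genes that rose. Of 9 class I genes 2, 3 and 3 rose (22.2%, 33.3% and 33.3%), with medians of 0.29, 0.43 and 0.45. Of 9 class II genes 3, 6 and 5 rose (33.3%, 66.7% and 55.6%), with medians of 0.57, 0.65 and 0.82. The share of all tested genes that rose was 5.44%, 9.91% and 12.5%. Eprs, which carries an enzyme of each class, is in neither count. The difference between the classes was not tested.

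**Figure D2:**
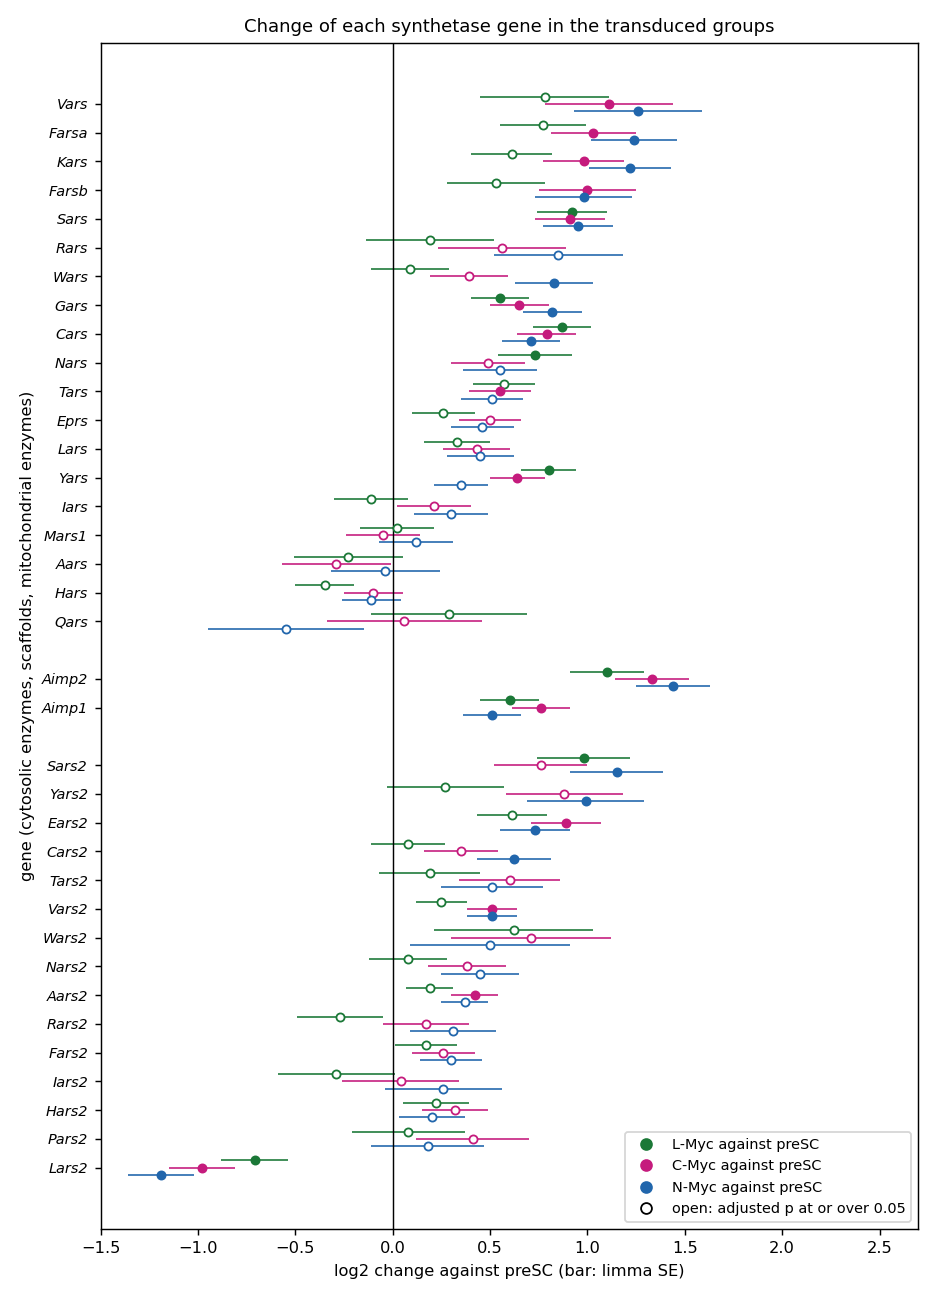
Log2 change of each tested gene against preSC, with a bar of 1 limma standard error to either side, for L-Myc (green), C-Myc (magenta) and N-Myc (blue). Filled points passed at an adjusted p under 0.05 and open points did not. Aimp2 lies furthest to the right, at 1.10 to 1.44, and Lars2 is the only gene with filled points left of 0.

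Among the mitochondrial enzymes, the largest rise was that of Sars2 in L-Myc and N-Myc and that of Ears2 in C-Myc. Sars2, the gene for the serine enzyme, read 6.52, 6.47 and 6.45 in preSC, 7.56 and 7.35 with L-Myc, 7.47 and 7.01 with C-Myc and 7.98 and 7.26 with N-Myc. Every transduced array was above the narrow preSC range. The changes were 0.98, 0.76 and 1.15 (SE 0.24; adjusted p = 0.0358, 0.054 and 0.0134), so the C-Myc value just missed the threshold.

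Ears2, the mitochondrial glutamate enzyme, read 6.01, 5.83 and 6.15 in preSC, 6.45 and 6.78 with L-Myc, 6.72 and 7.07 with C-Myc and 6.82 and 6.63 with N-Myc. The groups did not overlap with preSC. The changes were 0.61, 0.89 and 0.73 (SE 0.18; adjusted p = 0.0632, 0.0139 and 0.0229), and no other probe set of the gene was called.

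Vars2, the mitochondrial valine enzyme, read 7.05, 6.87 and 6.97 in preSC, 7.18 and 7.26 with L-Myc, 7.58 and 7.36 with C-Myc and 7.43 and 7.52 with N-Myc. The L-Myc arrays lay between preSC and the other transduced arrays. The changes were 0.25, 0.51 and 0.51 (SE 0.13; adjusted p = 0.231, 0.0299 and 0.0249). On the second Vars2 probe set they were -0.04, 0.22 and 0.31, none passing, so the rise rests on the brightest probe set.

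Yars2, the mitochondrial tyrosine enzyme, read 7.88, 7.59 and 7.40 in preSC, 7.86 and 7.93 with L-Myc, 9.03 and 7.99 with C-Myc and 8.46 and 8.76 with N-Myc. The L-Myc arrays overlapped with preSC, and the C-Myc arrays were over a log2 unit apart. The changes were 0.27, 0.88 and 0.99 (SE 0.30; adjusted p = 0.587, 0.0714 and 0.0454). On the second Yars2 probe set they were 0.08, 0.77 and 0.67, and none passed.

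Cars2, the mitochondrial cysteine enzyme, rose in N-Myc by 0.62 (SE 0.19; adjusted p = 0.0422), with 0.08 in L-Myc and 0.35 in C-Myc not passing. Aars2, the alanine enzyme, rose in C-Myc by 0.42 (SE 0.12; adjusted p = 0.0408), with 0.19 in L-Myc and 0.37 in N-Myc not passing. The other 8 mitochondrial genes tested, Fars2, Hars2, Iars2, Nars2, Pars2, Rars2, Tars2 and Wars2, passed in no comparison. The largest changes among them were those of Wars2, the tryptophan enzyme, at 0.62, 0.71 and 0.50 with an SE of 0.41, and of Tars2, the threonine enzyme, at 0.19, 0.60 and 0.51 with an SE of 0.26. For Wars2, preSC 3 at 7.50 stood above preSC 1 and 2 at 6.40 and 6.49 and overlapped with the transduced arrays.

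A cytosolic and a mitochondrial gene were both tested for 15 amino acids, in 16 pairs, since both phenylalanine subunits were set against Fars2. The cytosolic change was the larger of the pair for 11 pairs in L-Myc, 10 in C-Myc and 10 in N-Myc. The median of the cytosolic minus the mitochondrial change was 0.37, 0.13 and 0.10. The leucine pair among them rests on the brightest Lars2 probe set. With the second one, which moved the other way and was tried after seeing the data, the counts were 10, 9 and 9 and the medians 0.27, 0.10 and 0.06.

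Lars2 gave opposite directions on its probe sets. The brightest read 9.21, 9.23 and 9.36 in preSC, 8.54 and 8.56 with L-Myc, 8.06 and 8.50 with C-Myc and 8.24 and 7.92 with N-Myc, so every transduced array was below preSC. It fell by 0.71, 0.98 and 1.19 (SE 0.17; adjusted p = 0.0355, 0.00933 and 0.00502). The second probe set was higher in every transduced array and rose by 0.89, 0.82 and 0.84 (SE 0.16; adjusted p over all probe sets 0.00708, 0.00776 and 0.00628). The brightest Lars2 probe set moved with the 18S rRNA probe sets, which were also high in preSC alone, and the part of that difference in the fall was not tested. Where these probe sets lie on the transcript was not analysed here, and no direction for the gene can be drawn.

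Other genes also depended on the probe set, and those given here beyond Nars were chosen after their values were seen. Wars, the tryptophan enzyme, read 8.88, 8.73 and 8.99 in preSC, 8.82 and 9.09 with L-Myc, 9.49 and 9.02 with C-Myc and 9.87 and 9.53 with N-Myc on its brightest probe set. The L-Myc arrays overlapped with preSC and the N-Myc arrays stood clear of it. The changes were 0.09, 0.39 and 0.83 (SE 0.20; adjusted p = 0.796, 0.188 and 0.0202). The third of its 4 probe sets, like the brightest, passed in N-Myc alone, with changes of 0.17, 0.41 and 0.87. The second and the dimmest Wars probe sets rose in all 3 groups, the second by 0.90, 1.16 and 1.52 and the dimmest by 1.82, 2.03 and 2.52.

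The second Iars probe set rose in C-Myc and N-Myc by 0.79 and 0.88, with 0.51 in L-Myc not passing. That of Aars rose in N-Myc by 0.91, with 0.81 and 0.56 in L-Myc and C-Myc not passing. That of Cars2 rose by 1.05 in C-Myc and 1.35 in N-Myc, with 0.75 in L-Myc not passing. Over the 22 members with more than 1 tested probe set, in a fit over all probe sets, 7, 8 and 11 members were called on the brightest probe set with L-, C- and N-Myc, and 3, 3 and 5 of them were also called in the same direction on another.

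**Figure D3:**
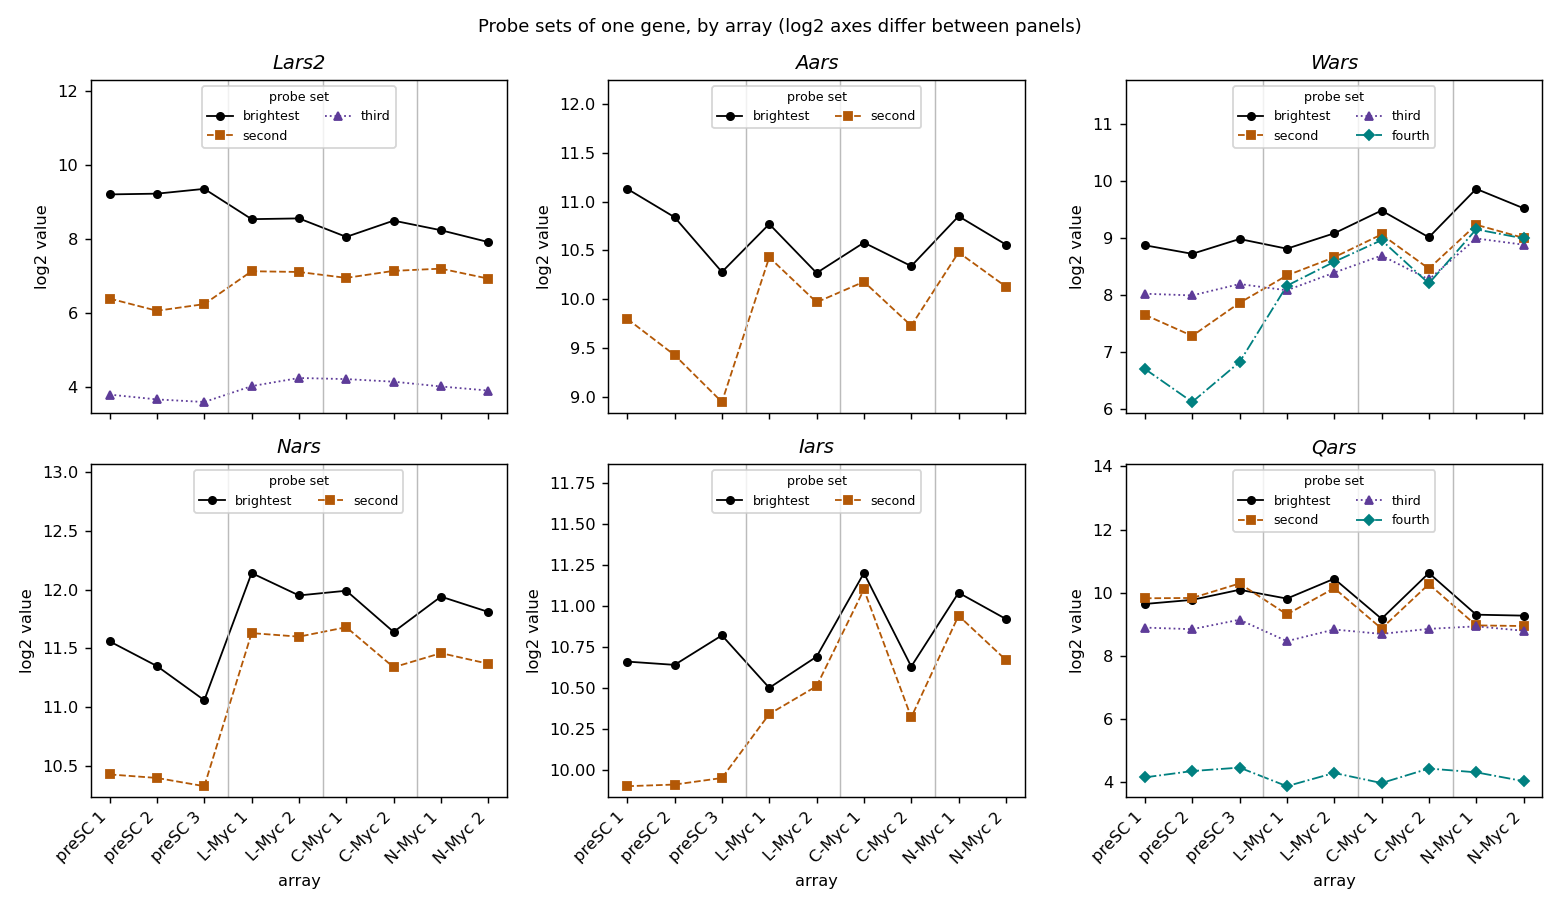
Log2 value by array of every probe set of Lars2, Aars, Wars, Nars, Iars and Qars, with a line for each probe set in order of brightness and vertical lines between groups. The y axes differ between panels. The Lars2 lines move in opposite directions between preSC and the transduced arrays, the dimmest Wars probe set rises by 1.82 to 2.52, and the 2 brightest Qars probe sets are low in C-Myc 1 and both N-Myc arrays.

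Replicates of the C-Myc group differed in these genes. The cytosolic median relative to the preSC mean was 0.73 in C-Myc 1 and 0.33 in C-Myc 2, with 0.30 and 0.59 in L-Myc 1 and 2 and 0.61 and 0.54 in N-Myc 1 and 2. C-Myc 1 was above C-Myc 2 for 18 of 19 cytosolic genes, with a median difference of 0.46, and for 11 of 15 mitochondrial genes, with a median of 0.22. The median difference over all tested genes was -0.02.

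Qars, the glutamine enzyme, was the exception. It read 9.64, 9.77 and 10.09 in preSC, 9.81 and 10.44 with L-Myc, 9.17 and 10.62 with C-Myc and 9.30 and 9.27 with N-Myc, and was chosen after these values were seen. C-Myc 1 lay with the N-Myc arrays and C-Myc 2 above every preSC array, so the group mean of C-Myc describes neither array. The changes of 0.29, 0.06 and -0.55 (SE 0.40) did not pass. The noncoding gene Pvt1, a neighbour of Myc, split the arrays in the same way, at 13.11 in C-Myc 1, 13.58 and 13.63 in N-Myc, 7.51 in C-Myc 2 and at most 6.69 elsewhere. The part of such a difference between the C-Myc arrays in the synthetase values was not tested.

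**Figure D4:**
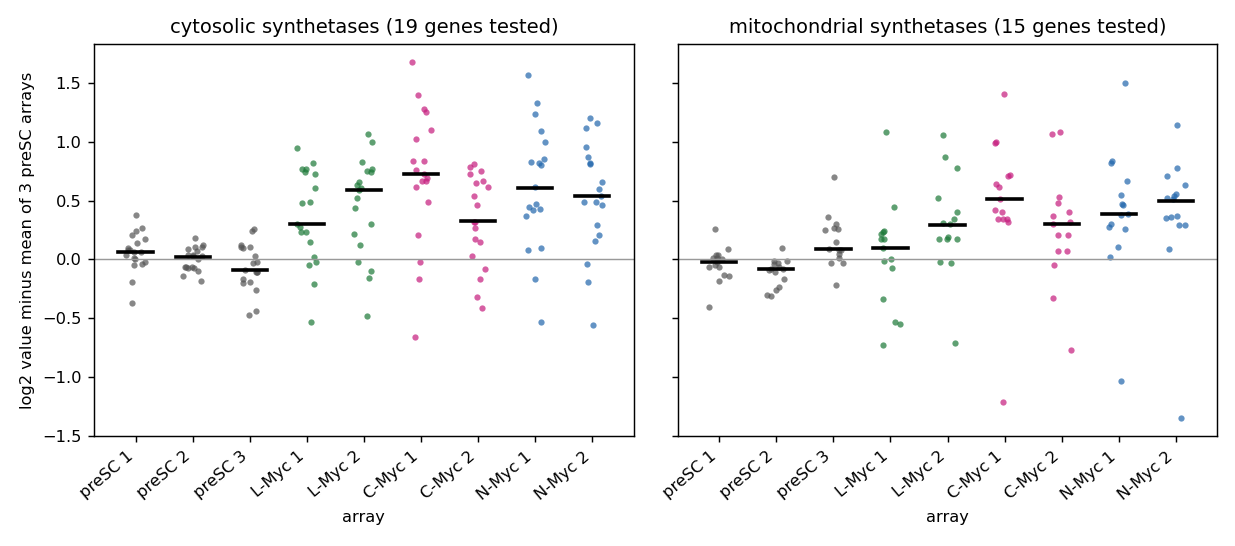
Each point is 1 gene in 1 array, as its log2 value minus its mean over the 3 preSC arrays, with the median as a black bar, for 19 cytosolic and 15 mitochondrial genes. The cytosolic medians are between -0.09 and 0.06 in preSC and between 0.30 and 0.73 in the transduced arrays, and the lowest mitochondrial point in each of the 6 transduced arrays is Lars2.

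The number of calls depended on single arrays. The cytosolic count for L-Myc, 5 with all arrays, was 9 without either C-Myc array, 3 without either N-Myc array, preSC 1 or preSC 3, 2 without L-Myc 1, 1 without L-Myc 2 and 0 without preSC 2. The count of 9 for C-Myc was 1 without C-Myc 1, 2 without preSC 2, 5 without preSC 1 and between 6 and 12 without each of the others. The count of 8 for N-Myc was 13 without either C-Myc array, 0 without either N-Myc array, 5 without preSC 1, 4 without preSC 2 and 7 or 8 without each of the others.

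The mitochondrial counts moved likewise. The 1 rise in L-Myc became 2 without either C-Myc array and 0 without either L-Myc array or any preSC array. The 3 rises in C-Myc became 8 without C-Myc 2, 1 without C-Myc 1, preSC 1 or preSC 3 and 0 without preSC 2. The 5 rises in N-Myc became 0 without N-Myc 1, 1 without N-Myc 2, preSC 1 or preSC 2, 2 without preSC 3 and 3 without either L-Myc array. The members that kept their call whichever array was left out were Aimp2, Cars and Lars2 in C-Myc and Aimp2 in N-Myc. In L-Myc there were 0 such members of 9, and Aimp2, Cars, Sars and Yars each lost the call in 2 of the 9 fits.

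No synthetase gene passed between transduced groups. In limma, 0 of 12976 genes passed in C-Myc against N-Myc, L-Myc against C-Myc or L-Myc against N-Myc, so 0% of genes were called in each. At an unadjusted p under 0.05 there were 541 genes (4.17%), 602 (4.64%) and 2432 (18.7%). Of the members, 0, 0 and 6 were among these. In L-Myc against N-Myc they were Yars (0.45) and Lars2 (0.47 on its brightest probe set) with L-Myc higher, and Wars (-0.74), Kars (-0.61), Rars2 (-0.58) and Cars2 (-0.55) with L-Myc lower, and the smallest adjusted p was that of Wars, 0.176. Genes that rose in 1 group and did not pass in another are thus not shown to differ between them.

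Between L-Myc and N-Myc the arrays did not overlap for 19 members with L-Myc lower and 4 with L-Myc higher, where 29.8% and 25.4% of all genes did so. The median change of L-Myc against N-Myc was -0.20 for the cytosolic and -0.19 for the mitochondrial genes, against -0.03 over all genes. The N-Myc and C-Myc arrays are labelled total RNA and the L-Myc arrays polyA RNA, so this label and the virus cannot be told apart in either comparison with L-Myc, as in C-Myc and N-Myc against preSC.

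The promoters of the members were searched for a pair of short motifs, because many of the genes moved together. CACGTG is the E-box that MYC proteins and other factors of their family bind, and TGATGNAA is the core of the amino acid response element that Atf4 is known for. Windows of 300 bases, from 250 before to 50 after a RefSeq start site (GRCm38.p6), were read on both strands, and 28 members had 30 windows. The stretches below are those of members with a match, with the motif in capitals. The reverse strand of TGATGNAA reads TTNCATCA.
Tars, chr15:11399659-11399808, minus strand, 150 bases before the start: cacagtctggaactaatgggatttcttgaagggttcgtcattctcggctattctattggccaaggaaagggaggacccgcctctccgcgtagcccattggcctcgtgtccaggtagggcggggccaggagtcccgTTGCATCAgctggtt
Tars, chr15:11399624-11399649, minus strand, after the start: cgcctgtggcCACGTGgcgcacgcgc
Gars, chr6:55037851-55038000, plus strand, 150 bases before the start: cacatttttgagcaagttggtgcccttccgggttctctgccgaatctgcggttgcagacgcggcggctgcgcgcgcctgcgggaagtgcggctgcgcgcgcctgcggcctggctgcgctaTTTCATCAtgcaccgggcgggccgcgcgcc
Yars, chr4:129189903-129189923, plus strand, after the start: agcTGATGCAAcccgacggga
Farsb, chr1:78488898-78489047, minus strand, 150 bases before the start: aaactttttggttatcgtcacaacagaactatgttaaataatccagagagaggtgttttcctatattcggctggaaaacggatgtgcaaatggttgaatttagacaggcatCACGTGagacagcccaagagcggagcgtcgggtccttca
Ears2, chr7:122067050-122067075, minus strand, after the start: cgaaggagccCACGTGtgtgtttcta
Aars, chr8:111033692-111033841, plus strand, 150 bases before the start: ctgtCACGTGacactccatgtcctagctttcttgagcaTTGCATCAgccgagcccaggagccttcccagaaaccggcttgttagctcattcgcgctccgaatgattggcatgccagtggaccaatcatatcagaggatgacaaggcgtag
Aars, chr8:111033842-111033868, plus strand, after the start: cgggtcactTTTCATCAgagcgctctg
Iars, chr13:49681980-49682129, plus strand, 150 bases before the start: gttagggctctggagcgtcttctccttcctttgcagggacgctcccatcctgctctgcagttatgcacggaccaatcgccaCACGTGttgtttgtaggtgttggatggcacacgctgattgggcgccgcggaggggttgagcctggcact
Iars, chr13:49682130-49682154, plus strand, after the start: gtcagtaTTGCATCAcctccagacg

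CACGTG was found in 4 of 12 cytosolic windows (33.3%: Aars, Farsb, Iars and Tars), in 1 of 15 mitochondrial windows (6.67%: Ears2) and in 7.15% of all 32851 windows. TGATGNAA was found in 5 of 12 cytosolic windows (41.7%: Aars, Gars, Iars, Tars and Yars), in 0 of 15 mitochondrial windows and in 3.97% of all windows. Aars, Iars and Tars held both motifs, and 0.201% of all windows did. No window of Aimp1 or Aimp2 held either.

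Of the genes with both motifs, Aars and Iars passed in no group on their brightest probe set, and Tars in C-Myc alone. The second probe set of Aars rose in N-Myc and that of Iars in C-Myc and N-Myc. Among genes that rose in any group, Farsb, Gars, Tars, Yars and Ears2 had a match. Sars, Kars, Farsa, Aars2, Cars2, Sars2, Vars2, Yars2, Aimp1 and Aimp2 also rose in some group and had only windows without one. Whether a match goes with a change was not tested. A match describes the letters of a window and was not tested as a site. Cars, Hars, Hars2, Lars, Nars, Pars2, Rars, Vars and Wars were not searched here.

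Genes that act beside the synthetases were read from 4 lists. Over all tested genes, 5.44%, 9.91% and 12.5% rose with L-, C- and N-Myc, and 8.03%, 13.6% and 16.4% fell. Among helpers of charging, 2, 5 and 9 of 19 tested genes rose (10.5%, 26.3% and 47.4%) and 1 fell in each group (5.26%). Their median changes were 0.27, 0.37 and 0.62. Eef1e1, the third scaffold of the multisynthetase complex, read 10.18 to 10.29 in preSC and 11.21 to 11.84 in the transduced arrays and rose by 1.12, 1.46 and 1.31 (SE 0.15; adjusted p = 0.00722, 0.00314 and 0.0031). All 3 scaffold genes of the complex thus rose in every group. Yrdc, which starts the threonylcarbamoyl modification of tRNA, rose by 1.01, 1.15 and 1.08.

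Gatc, a subunit of the mitochondrial enzyme that completes glutamine charging, rose by 0.73 in C-Myc and 1.16 in N-Myc, with 0.43 in L-Myc not passing. Pstk and Sepsecs, which act in turn to turn serine on its tRNA into selenocysteine, differed in direction: Pstk rose by 0.89 in C-Myc and 0.96 in N-Myc, with 0.38 in L-Myc not passing, while Sepsecs fell by 0.69, 0.63 and 0.86 with L-, C- and N-Myc. Sepsecs was named in addition to the rule after its values were seen.

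Among genes of tRNA processing and modification, 5, 20 and 22 of 52 rose (9.62%, 38.5% and 42.3%) and 2, 1 and 3 fell. The medians were 0.30, 0.57 and 0.40. Rpp40, a protein of ribonuclease P, which trims the 5′ end of tRNA, rose by 2.04 in C-Myc and 1.92 in N-Myc, with 0.92 in L-Myc not passing. Pus7, a pseudouridine synthase, rose by 1.38 and 1.29 in these groups, and Nsun2, a cytosine methyltransferase of tRNA, by 1.23 and 1.34, with 0.63 and 0.65 in L-Myc not passing. Elac2, which trims the 3′ end, rose by 1.30 and 0.99, with 0.88 in L-Myc not passing. Tsen54, of the tRNA splicing endonuclease, which tied with Elac2 at 1.30 in C-Myc, rose by 1.24, 1.30 and 1.07 in the 3 groups.

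The list for delivery of charged tRNA to the ribosome also holds factors of other steps of elongation and of ribosome recycling. Of its 17 tested genes, 1, 7 and 7 rose (5.88%, 41.2% and 41.2%) and 0 fell in limma. The medians were 0.15, 0.48 and 0.59, and the L-Myc share was near that of all genes. Eef1b2, an exchange factor of elongation factor 1, rose by 0.94, 0.86 and 0.72. Eef1d, of the same exchange complex, rose by 1.03 and 0.93 in C-Myc and N-Myc, Gfm2, a mitochondrial elongation factor family member that recycles ribosomes, by 0.86 and 0.82, and Eef2, the translocation factor, by 0.61 and 0.71. Their L-Myc changes of 0.51, 0.53 and 0.41 did not pass.

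The amino acid stress list, genes that Atf4 is known to raise together with several synthetases, was mixed. In it 4, 9 and 8 of 30 genes rose (13.3%, 30% and 26.7%) and 1, 1 and 2 fell. The medians were -0.02, 0.13 and 0.37. Phgdh, the first enzyme of serine synthesis, rose by 1.10, 1.40 and 1.55. Shmt2, which passes on the one-carbon unit of serine in mitochondria, rose by 1.17 and 1.52 in C-Myc and N-Myc, with 0.81 in L-Myc not passing. Cth, of cysteine synthesis, rose by 1.43 and 2.34 in L-Myc and C-Myc, with 1.01 in N-Myc not passing, and Stc2, a secreted stress glycoprotein, rose by 1.57 and 1.83 in C-Myc and N-Myc, with 0.70 in L-Myc not passing.

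Atf4, Asns, Ddit3, Trib3 and Chac1 are given beyond the rule, after their values were seen. Asns, the asparagine synthetase, rose by 0.63 in C-Myc and 0.81 in N-Myc, with 0.50 in L-Myc not passing, and Atf4 itself rose by 0.46 in N-Myc, with 0.28 and 0.41 not passing. Ddit3 (-0.93, -0.72 and -0.62), Trib3 (-0.60, -0.54 and -0.67) and Chac1 (-0.27, 0.08 and 0.02), stress genes downstream of Atf4, did not pass in any group. The synthetases with the response element letters in their window likewise divided, Gars rising in all 3 groups, Yars in L-Myc and C-Myc and Tars in C-Myc, with Aars and Iars not passing on their brightest probe sets.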

How the data were processed

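RNA of 9 arrays in 4 groups was read from the value table, with groups from the sample titles. The authors deposited log2 values made with RMA in the R package affy under R 3.0.1, per the submitters' processing notes. RMA brings the arrays to a common distribution, so a shift of all transcripts is lost, and it compresses differences between dim probe sets. Array medians were 6.02 to 6.07, and no further scaling was applied.

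Of 45101 probe sets, 34945 had 1 gene symbol and were no controls, 932 had several, 9211 were not listed in the annotation table and 64 were controls. By Entrez identifier, 34741 matched RefSeq (GRCm38.p6), and 0 symbols changed. A gene was tested if above the 40th percentile of its array (5.28 to 5.34) in at least 2 of 9 arrays. Group means were fitted over all 9 arrays with limma 3.58.1 (lmFit, eBayes; R 4.3.3; 5 residual degrees of freedom), two-sided, with Benjamini-Hochberg adjustment over 12976 genes for each of 6 comparisons. Changes are differences of group means with the limma SE. Other probe sets of a gene were read from the same fit over all probe sets. The script was tested on simulated data.

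Values in every array are given for the 4 cytosolic and 3 mitochondrial genes with the largest change past the threshold in each comparison with preSC, for Eprs, Aimp1 and Aimp2, and for genes with opposite calls on different probe sets; from each list, up to 4 genes with the largest changes that passed are named. Members, classes and lists were chosen with earlier results of these data known. The alternatives were 2 scalings, 2 brightness filters, 2 choices of probe set, another variance model, fits of 2 groups, the replicate number as a block and each array left out.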

Additional observations from a re-analysis of the deposited data

How the results depend on the processing

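With 9 arrays and 5 residual degrees of freedom, calls near the threshold changed with the setting, and the cause was not tested. Stricter or no filtering and the other variance model left the synthetase counts against preSC within 1.5 times. Centring arrays on the median of the tested genes moved the median of all genes to 0.10, 0.12 and 0.14 in the L-Myc, C-Myc and N-Myc comparisons with preSC. It gave cytosolic medians of 0.71 in C-Myc and 0.72 in N-Myc, mitochondrial medians of 0.57 and 0.62, 13 cytosolic rises in N-Myc, 5 mitochondrial rises in C-Myc, and in L-Myc 2 mitochondrial rises and 0 falls. Quantile normalization left 3 cytosolic rises in L-Myc.

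With only the arrays of 2 groups, C-Myc had 3 cytosolic and 1 mitochondrial rises and N-Myc 1 cytosolic fall. With the mean of probe sets, the mitochondrial falls became 0 in all 3 groups, the mitochondrial rises in C-Myc became 1, and Lars2 turned to 0.21 in L-Myc and 0.11 in C-Myc. With the second-highest probe set, Lars2 turned to 0.89, 0.82 and 0.84 with L-, C- and N-Myc, and Farsa to -0.03 in C-Myc and -0.07 in N-Myc. The cytosolic medians were then 0.79 in C-Myc and 0.83 in N-Myc, the mitochondrial medians -0.02, 0.19 and 0.23, the mitochondrial rises 2 in L-Myc and 2 in N-Myc, and the falls 0 in each. Adjusting over all probe sets, an alternative chosen after seeing the data, gave 2 mitochondrial rises in L-Myc.

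Whether the replicate numbers of the titles pair the arrays was not settled. Correlations of same-numbered arrays, taken on deviations from the group mean, ran from -0.68 to 0.65. Between transduced groups they ran from 0.14 to 0.44, and the negative ones all involved preSC 2. In a group of 2 arrays the deviations mirror each other, so these correlations cannot decide on pairing. With the replicate block, L-Myc had 2 cytosolic rises and 0 mitochondrial falls, and N-Myc 2 mitochondrial rises.

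With each array left out in turn, the cytosolic rises ran from 0 to 9 in L-Myc, 1 to 12 in C-Myc and 0 to 13 in N-Myc. The mitochondrial rises ran from 0 to 2, 0 to 8 and 0 to 7, and the falls from 0 to 1 in L-Myc and N-Myc. The cytosolic medians ran from 0.30 to 0.59, 0.33 to 0.73 and 0.47 to 0.67, and the mitochondrial medians from 0.10 to 0.29, 0.30 to 0.51 and 0.37 to 0.50. Between transduced groups the cytosolic median ran from -0.29 to 0.14 in C-Myc against N-Myc and from -0.33 to 0.12 in L-Myc against C-Myc, and the mitochondrial median from -0.38 to -0.08 in the latter.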
